A study of Mus musculus with 12 samples.

Results

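The genes described here are Peg13, Kcnk9, Trappc9, Chrac1 and Ago2, an imprinted gene cluster on mouse chromosome 15. They were found by gene name in the deposited expression table, and 5 of its 51912 genes matched, 1 row for each name. All 5 were among the 15623 genes with a mean of at least 1 TPM over the 12 libraries, which were the genes tested. TPM is transcript abundance per length, scaled so that every library has an equal sum. The list was built around Peg13, which earlier results of these data had called lower after 48 h of erinacine S. Values of the 5 genes in erinacine S 48 h against DMSO 48 h are therefore a description with no test, and so are the other contrasts that hold the erinacine S 48 h libraries. For Peg13 the same holds for DMSO 48 h against DMSO 16 h, which shares the DMSO 48 h libraries.

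RNA came from primary cortical neurons dissociated from the cortex of C57BL/6J mouse embryos at E17.5, with the meninges removed. All groups share the plating and maintenance media, and erinacine S was added on the day of plating. The 4 groups of 3 libraries were erinacine S for 48 h, the DMSO solvent control for 48 h, erinacine S for 16 h and DMSO for 16 h. Erinacine S, which is obtained from Hericium erinaceus mycelium, was given at 1 µg/mL. The labels give no genetic alteration in any group. The repeats are called independent, but litters, dishes or days are not named, so p-values measure only how these libraries vary, and that spread may be technical. Embryonic cultures only hours old at treatment stand for early neuronal maturation, and they hold other cells too, as the markers below show.

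An imprinted gene is transcribed mainly from the copy inherited from either the mother or the father. In mouse brain Peg13, a long non-coding RNA, is transcribed from the paternal copy, where the differentially methylated region at its promoter is unmethylated, while Kcnk9 is transcribed mainly from the maternal copy, and Trappc9, Chrac1 and Ago2 show a maternal bias. Kcnk9 encodes TASK-3, an acid-sensitive K2P (tandem pore domain) potassium channel that passes background potassium current and helps to set the resting potential of neurons. Trappc9 encodes a subunit of the TRAPPII vesicle-tethering complex, Chrac1 a histone-fold subunit of the CHRAC chromatin remodelling complex, and Ago2 the Argonaute protein that cleaves targets of small RNAs. The TPM sum both parental copies, and the C57BL/6J strain is inbred, so nothing below says which copy the RNA came from.

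In the deposited table, on GRCm38, Peg13 (ENSMUSG00000106847) lies at chr15:72805600-72810324 on the minus strand and spans 4.725 kb. It lies wholly inside Trappc9 (ENSMUSG00000047921, chr15:72589621-73061204), on the same strand. In the GENCODE M21 annotation of the same build, Peg13 falls in intron 16 of both 22-exon Trappc9 transcripts and in intron 17 of an 18-exon transcript, and it overlaps 0 exons of the 7 Trappc9 transcripts. Reads from unspliced Trappc9 RNA across that intron cannot be told apart from Peg13, with or without strand. Kcnk9 (ENSMUSG00000036760, chr15:72512119-72546279, minus strand) lies on the low-coordinate side of Trappc9. GENCODE M21 starts Kcnk9 at 72501089, so its gene model reaches further at the 3′ end than the deposited one. On the other side lie Chrac1 (ENSMUSG00000068391, chr15:73090392-73097554, plus strand) and Ago2 (ENSMUSG00000036698, chr15:73095844-73184840, minus strand). Chrac1 and Ago2 overlap by 1711 bases on opposite strands. The libraries were strand-specific, but the strand setting of the counting is not given in the sources used here, so reads in the overlap may have been split between the pair.

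The libraries held 15219 to 15789 genes of at least 1 TPM, and the read depth behind them is unknown. The summed TPM of the 5 neuron markers Tubb3, Rbfox3, Map2, Snap25 and Syn1 was 3930 to 3982 in the erinacine S 48 h libraries, 3950 to 4354 in the DMSO 48 h libraries, 2641 to 3369 in the erinacine S 16 h libraries and 2484 to 3296 in the DMSO 16 h libraries. Markers of other cells were present at lower sums, up to 387 TPM for radial glia and 213 TPM for the oligodendrocyte lineage, and no marker of any list was at 0 in all 3 libraries of a group. Replicate 1 of erinacine S 48 h stood apart from the other libraries, with the lowest share of mitochondrially encoded RNA (5.12%, against 5.94% to 7.70% in the other 11 libraries). For the 5 genes, log2 fold changes printed below that moved by over 1.5 times without this library are also given without it. Its spread enters the shared fit, so SE, intervals and p-values of every comparison depend on it too. They are given with it unless stated.

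**Figure D1:**
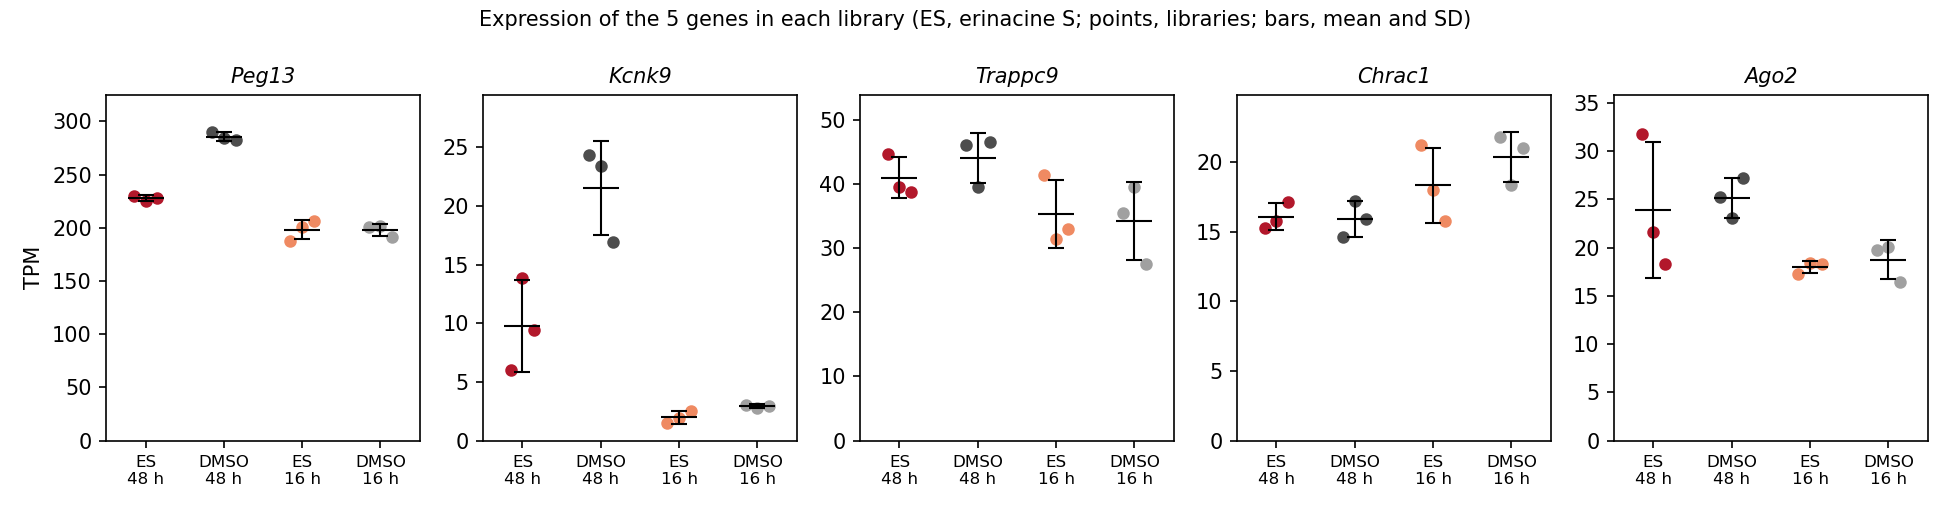
TPM of Peg13, Kcnk9, Trappc9, Chrac1 and Ago2 (a panel each, linear axes from 0) in the 12 libraries, with the groups erinacine S 48 h, DMSO 48 h, erinacine S 16 h and DMSO 16 h from left to right. Points are libraries and bars are the mean and SD (n = 3). Peg13 lay at 228 ± 2.61 in erinacine S 48 h and 286 ± 4.12 in DMSO 48 h, and Kcnk9 at 9.77 ± 3.92 and 21.5 ± 4.04 in the same groups.

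Peg13 was the most abundant of the 5 genes in every library. Its TPM were 229.9, 224.8 and 228.5 in erinacine S 48 h, 290.2, 284.4 and 282.2 in DMSO 48 h, 188.0, 200.6 and 205.9 in erinacine S 16 h, and 200.9, 202.0 and 191.7 in DMSO 16 h. All 3 erinacine S 48 h libraries lay below all 3 DMSO 48 h libraries, both groups at 48 h lay above every 16 h library, and the groups at 16 h overlapped. Over the 12 libraries it averaged 227 TPM, above 95.7% of the genes tested, and ranked 58th of the 2859 tested genes that are not protein-coding. The spread between replicates was small at 48 h, with a coefficient of variation of 1.15% in erinacine S 48 h and 1.44% in DMSO 48 h. It was 4.64% in erinacine S 16 h and 2.84% in DMSO 16 h. Peg13 was chosen on a call in the 48 h libraries, and such a choice favours genes of small spread there.

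The mean of Peg13 in erinacine S 48 h was 0.797 times that in DMSO 48 h (228 ± 2.61 TPM in erinacine S 48 h and 286 ± 4.12 TPM in DMSO 48 h, SD, n = 3 each). On the log2 scale the difference was -0.33 ± 0.05 (SE). This is the difference by which the list was chosen. It ranged from -0.33 to -0.31 when any 1 library was left out. With time, its log2 difference was 0.53 ± 0.05 in DMSO (48 h minus 16 h) and 0.20 ± 0.05 in erinacine S. In ratios of means, DMSO 48 h stood at 1.44 times DMSO 16 h, and erinacine S 48 h at 1.15 times erinacine S 16 h. These contrasts share libraries in pairs and are not independent of each other. The erinacine S difference at 48 h minus that at 16 h was -0.32 ± 0.07 on the log2 scale, also without a test.

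The 16 h libraries had no part in choosing Peg13, and there the difference could be tested. Peg13 averaged 198.2 ± 9.20 TPM in erinacine S 16 h and 198.2 ± 5.63 TPM in DMSO 16 h (SD, n = 3 each). Its log2 fold change was -0.00 with a 95% confidence interval of -0.12 to 0.11 (limma, Benjamini-Hochberg adjusted p = 1.00).

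Kcnk9 was the gene of the cluster with the widest range in relative terms. Its TPM were 6.04, 13.8 and 9.43 in erinacine S 48 h, 24.3, 23.4 and 16.9 in DMSO 48 h, 1.51, 1.88 and 2.56 in erinacine S 16 h, and 3.07, 2.75 and 2.97 in DMSO 16 h. At both times every erinacine S library lay below every DMSO library, and every 48 h library lay above every 16 h library.

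In control cultures Kcnk9 rose with time. It averaged 21.5 ± 4.04 TPM in DMSO 48 h and 2.93 ± 0.164 TPM in DMSO 16 h (SD, n = 3 each). The ratio of means was 7.36. Its log2 fold change was 2.51 ± 0.24 (SE; limma, adjusted p = 3.55e-05), and only 3 of the 15623 genes tested had a higher one. The call held in all 19 alternatives, with values between 1.73 and 2.82. Of all genes tested, 32.7% were called in this comparison, 16.1% as higher and 16.6% as lower in DMSO 48 h. Sums of markers also differed without overlap between these groups, for neurons as given above, for the oligodendrocyte lineage (182 to 213 TPM in DMSO 48 h against 46.0 to 94.1 TPM in DMSO 16 h) and for astrocytes (83.7 to 98.4 TPM in DMSO 48 h against 39.3 to 55.1 TPM in DMSO 16 h). Meningeal fibroblast markers were lower, at 1.53 to 1.92 TPM in DMSO 48 h against 3.48 to 5.77 TPM in DMSO 16 h, and the other 4 lists overlapped. The part of these cell types in the rise of Kcnk9 was not tested. In bulk RNA fewer cells of a type and less RNA per cell cannot be told apart.

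After 48 h of erinacine S, Kcnk9 averaged 9.77 ± 3.92 TPM, against 21.5 ± 4.04 TPM in DMSO 48 h (SD, n = 3 each). The ratio of means was 0.454. The log2 fold change was -1.11 ± 0.24 (SE), and 34 of the genes tested had a lower one, as a description. Without replicate 1 of erinacine S 48 h, where Kcnk9 was lowest, the log2 fold change was -0.84, and without replicate 2, where it was highest, -1.38. The gain of Kcnk9 with time was 1.80 ± 0.24 on the log2 scale in erinacine S (48 h minus 16 h), beside the 2.51 in DMSO, and 2.08 in erinacine S without replicate 1 at 48 h. The erinacine S effect at 48 h minus that at 16 h was -0.70 ± 0.33 on the log2 scale. It was -0.43 without replicate 1 of erinacine S 48 h, and between -0.97 and -0.43 with any 1 library left out.

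At 16 h, Kcnk9 averaged 1.98 ± 0.532 TPM in erinacine S and 2.93 ± 0.164 TPM in DMSO (SD, n = 3 each). The log2 fold change was -0.41 with a 95% confidence interval of -0.92 to 0.10 (limma, adjusted p = 1.00, unadjusted p = 0.106). The 3 erinacine S libraries all lay below the 3 DMSO libraries, which was so for 1 of the 5 genes and for 1.56% of all genes tested (4.19% in either direction). The test did not call it. The SE of this log2 fold change was 0.24, or 0.18 without replicate 1 of erinacine S 48 h, and the lack of a call did not change.

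The other K2P channels give a family against which to set Kcnk9. Of 13 other K2P genes 5 were tested, namely Kcnk1, Kcnk2, Kcnk3, Kcnk10 and Kcnk12, and the other 8 were below the level filter. In DMSO 48 h against DMSO 16 h 4 of the 5 rose, beside 16.1% of all genes. Kcnk3, which encodes TASK-1, the closest relative of TASK-3 and able to form mixed channels with it, rose by 0.97 ± 0.13 on the log2 scale (SE; limma, adjusted p = 0.00037). Kcnk1 (TWIK-1) rose by 0.88 (adjusted p = 0.00108), Kcnk12 (THIK-2) by 0.77 (adjusted p = 0.0174) and Kcnk10 (TREK-2) by 0.44 (adjusted p = 0.0117). Kcnk2 (TREK-1), at 0.23, was not called (adjusted p = 0.0507), but it passed without erinacine S 48 h replicate 1, erinacine S 16 h replicate 1 or DMSO 16 h replicate 3 and under 3 other alternatives (adjusted p 0.0296 to 0.183 over all alternatives). The call of Kcnk12 was lost without DMSO 48 h replicate 1 or 3 or DMSO 16 h replicate 3, with adjusted p up to 0.0615. With no filter on low values Kcnk12 and Kcnk10 were both lost (adjusted p = 0.0849 for Kcnk12 and 0.0588 for Kcnk10). The median of the 5 was 0.77, against -0.03 over all genes.

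None of those 5 was called in erinacine S 48 h against DMSO 48 h or in erinacine S 16 h against DMSO 16 h. Their median log2 fold change was 0.02 at 48 h and 0.05 at 16 h. Of all genes tested, limma called 0.134% at 48 h and 0% at 16 h, and Kcnk9 itself was given no test at 48 h. With calls so rare, none among 5 does not set these genes apart from Kcnk9. Kcnk9 took 4.32% to 11.1% of the summed TPM of the 14 K2P genes in erinacine S 48 h and 12.5% to 17.8% of it in DMSO 48 h. At 16 h its share was 1.68% to 2.97% with erinacine S and 3.14% to 3.69% with DMSO. The shares do not overlap between erinacine S and DMSO at either time. Among the K2P genes of a library, Kcnk9 had rank 4 or 5 in erinacine S 48 h, rank 3 or 4 in DMSO 48 h and rank 5 in all 16 h libraries.

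**Figure D2:**
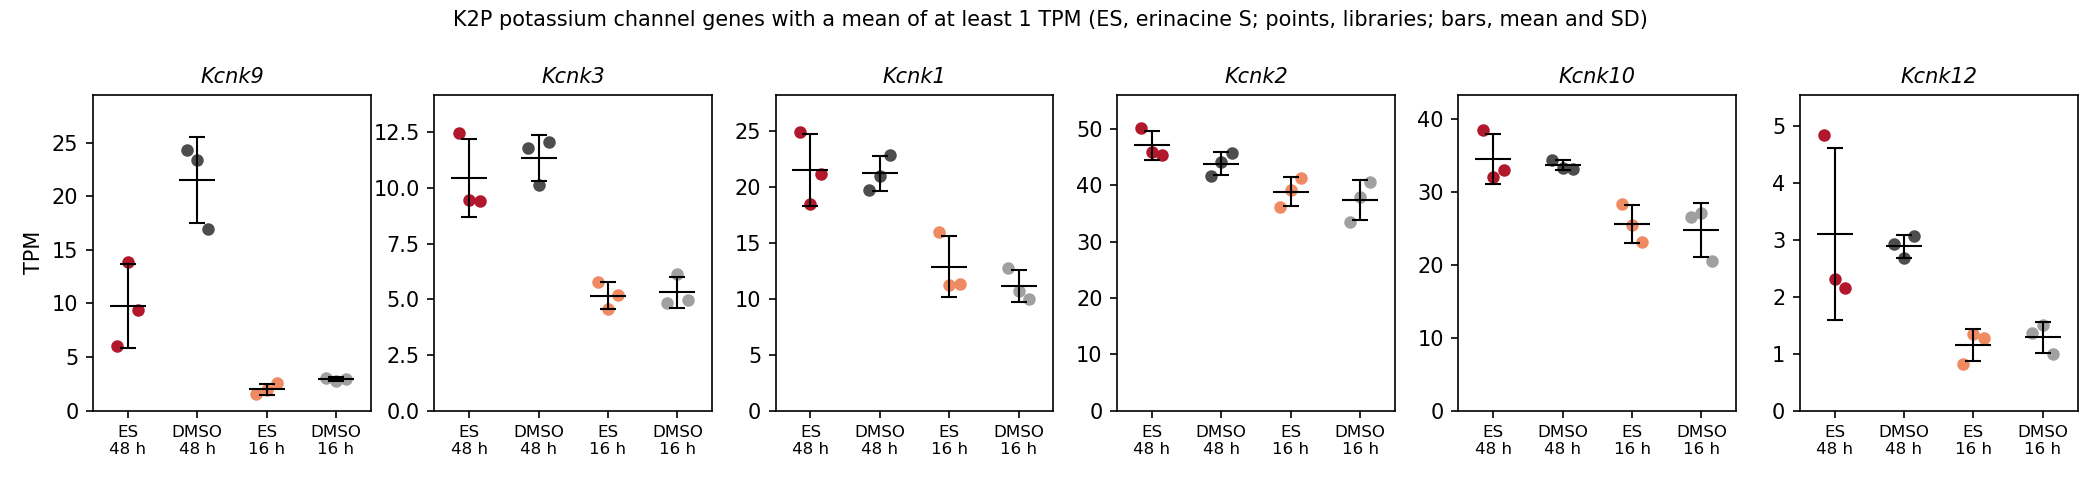
TPM of Kcnk9 and the 5 other tested K2P potassium channel genes (a panel each, linear axes from 0) in each library, by group in the same order as above; points are libraries and bars the mean and SD (n = 3). Kcnk9 averaged 9.77 in erinacine S 48 h and 21.5 in DMSO 48 h, while Kcnk1 averaged 21.5 and 21.2 and Kcnk10 34.6 and 33.7 in those groups.

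Marker levels of other cell types moved in the 48 h libraries too. Summed over 5 markers each, the microglia list held 0.710 to 6.02 TPM with erinacine S and 11.8 to 17.5 TPM with DMSO. The oligodendrocyte lineage list held 47.3 to 170 TPM with erinacine S and 182 to 213 TPM with DMSO, and the radial glia list 166 to 287 TPM and 305 to 332 TPM in those groups. Of the radial glia markers only Vim did not overlap, at 80.8 to 156 TPM with erinacine S and 159 to 201 TPM with DMSO. Nes, Sox2, Pax6 and Hes5 overlapped, so that sum is not read as lower radial glia markers in general. The astrocyte list overlapped, at 38.5 to 102 TPM with erinacine S and 83.7 to 98.4 TPM with DMSO, and so did dividing cells, at 34.7 to 110 TPM and 109 to 116 TPM. The meningeal fibroblast list held 0.569 to 0.901 TPM with erinacine S and 1.53 to 1.92 TPM with DMSO, without overlap, and the endothelial and mural list 0.591 to 2.03 TPM and 2.01 to 2.51 TPM in those groups, with overlap. Of the markers in these last lists, 4 of the 5 for meningeal fibroblasts and all 5 for endothelial and mural cells averaged under 1 TPM. Among the meningeal fibroblast markers only Col1a2 did not overlap. Neuron markers overlapped as given above. Of the 48 h libraries, the lowest astrocyte, microglia, oligodendrocyte, dividing and radial glia sums were all in replicate 1 of erinacine S 48 h, where Kcnk9 was lowest, while Peg13 was 229.9 TPM there and 224.8 and 228.5 TPM in the others of the group. The part of these cells in the Kcnk9 and Peg13 values was not tested.

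Trappc9, the host gene of Peg13, was not called in any comparison tested. Its TPM were 44.6, 39.5 and 38.7 in erinacine S 48 h, 46.1, 39.5 and 46.4 in DMSO 48 h, 41.4, 31.4 and 33.0 in erinacine S 16 h, and 35.4, 39.5 and 27.6 in DMSO 16 h. Each pair of groups overlapped, at both times and across them. The log2 fold change was -0.10 ± 0.13 (SE) in erinacine S 48 h against DMSO 48 h, without a test, and -0.16 without replicate 1 of erinacine S 48 h. In erinacine S 16 h against DMSO 16 h it was 0.05, with a 95% confidence interval of -0.24 to 0.34 (limma, adjusted p = 1.00), and it was -0.068 without erinacine S 16 h replicate 1 and -0.093 without DMSO 16 h replicate 3. In DMSO 48 h against DMSO 16 h it was 0.37 ± 0.13 and missed the threshold (limma, adjusted p = 0.0550). It passed under median-ratio scaling (adjusted p = 0.0373), with the replicate number as a block (adjusted p = 0.0428), and without erinacine S 48 h replicate 1, erinacine S 16 h replicate 1 or DMSO 16 h replicate 2 (adjusted p = 0.0493, 0.0367 and 0.0252).

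The ratio of Peg13 to Trappc9, both per length, was 5.15 to 5.91 with erinacine S and 6.08 to 7.21 with DMSO at 48 h, without overlap. At 16 h it was 4.54 to 6.38 with erinacine S and 5.11 to 6.95 with DMSO, with overlap. The 48 h ratio holds the Peg13 difference by which the list was chosen, so nothing further is read from its separation.

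Of the 14 other TRAPP subunit genes 13 were tested, and none was called in erinacine S against DMSO at 48 h or at 16 h. Of all genes, 0.134% were called at 48 h and 0% at 16 h. In DMSO 48 h against DMSO 16 h 1 of the 13 rose and 2 fell, beside 16.1% and 16.6% of all genes. Trappc10, which like Trappc9 belongs to the TRAPPII form of the complex, rose by 0.32 on the log2 scale (limma, adjusted p = 0.0456). Trappc1, a subunit of the TRAPP core, had a log2 fold change of -0.31 (adjusted p = 0.00681), and Trappc6a, also of the core, one of -0.40 (adjusted p = 0.031). The call of Trappc10 was lost without any 1 of the 3 DMSO 48 h libraries, DMSO 16 h replicate 1 or 3, or erinacine S 48 h replicate 2 or erinacine S 16 h replicate 2 (adjusted p up to 0.159). That of Trappc6a was lost without DMSO 48 h replicate 1 or 2 or DMSO 16 h replicate 1 or 3 (adjusted p up to 0.118). With no filter on low values both calls were lost (adjusted p = 0.187 for Trappc10 and 0.112 for Trappc6a). The median of the 13 in that comparison was -0.02, against -0.03 over all genes.

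Chrac1 is the gene of the 5 with a negative log2 difference over time in both DMSO and erinacine S. Its TPM were 15.3, 15.8 and 17.1 in erinacine S 48 h, 14.6, 17.2 and 15.9 in DMSO 48 h, 21.2, 18.0 and 15.8 in erinacine S 16 h, and 21.8, 18.4 and 21.0 in DMSO 16 h. All 48 h libraries lay below all DMSO 16 h libraries, and the other pairs of groups overlapped. In DMSO, Chrac1 fell, at 15.9 ± 1.28 TPM in DMSO 48 h and 20.4 ± 1.80 TPM in DMSO 16 h (SD, n = 3 each). The log2 fold change was -0.34 ± 0.11 (SE; limma, adjusted p = 0.0360). The call was lost with no filter on low values (adjusted p = 0.118), with the replicate number as a block (adjusted p = 0.0529) and without DMSO 48 h replicate 1 or 3 or erinacine S 16 h replicate 2, and without DMSO 16 h replicate 1 or 3, with adjusted p up to 0.131.

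Erinacine S and DMSO were close for Chrac1 at 48 h, with a log2 fold change of 0.01 ± 0.11 (SE), or 0.05 without replicate 1 of erinacine S 48 h, and no test. At 16 h the log2 fold change was -0.15 with a 95% confidence interval of -0.39 to 0.09 (limma, adjusted p = 1.00). Of its 4 CHRAC and ACF partner genes, all tested, Baz1a (ACF1, the large subunit) and Smarca5 (SNF2H, the ATPase) fell in DMSO 48 h against DMSO 16 h, with log2 fold changes of -0.81 (limma, adjusted p = 0.00179) and -0.33 (adjusted p = 0.014). Of all genes tested, 16.6% were called lower in that comparison. The call of Smarca5 was lost with no filter on low values (adjusted p = 0.0555). Neither erinacine S comparison called any of the 4, beside 0.134% of all genes at 48 h and 0% at 16 h. In erinacine S 48 h against DMSO 48 h, Baz1a had a log2 fold change of -0.45 ± 0.15 (SE; adjusted p = 0.376).

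Ago2 had TPM of 31.8, 21.6 and 18.3 in erinacine S 48 h, 25.2, 23.0 and 27.2 in DMSO 48 h, 17.2, 18.4 and 18.3 in erinacine S 16 h, and 19.7, 20.1 and 16.5 in DMSO 16 h. The erinacine S 48 h libraries reached above and below those of DMSO 48 h, with the highest value in replicate 1. The log2 fold change between these groups was -0.10 ± 0.16 (SE), without a test, and -0.32 without replicate 1 and 0.06 without replicate 3 of erinacine S 48 h. At 16 h the erinacine S difference was -0.05 with a 95% confidence interval of -0.40 to 0.29 (limma, adjusted p = 1.00). Its SE was 0.16, or 0.10 without replicate 1 of erinacine S 48 h, where it was still not called.

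The DMSO 48 h libraries held more Ago2 RNA than all DMSO 16 h libraries, but the log2 fold change of 0.41 ± 0.16 (SE) missed the threshold (limma, adjusted p = 0.0680). The difference passed under median-ratio scaling (adjusted p = 0.0465), without erinacine S 48 h replicate 1 (adjusted p = 0.00737) and without erinacine S 48 h replicate 3 (adjusted p = 0.0379). Ago1, the most abundant Argonaute here, averaged 104 TPM in erinacine S 48 h, 96.9 in DMSO 48 h, 106 in erinacine S 16 h and 102 in DMSO 16 h. Of 12 other genes for Argonautes and the microRNA machinery, all tested, Xpo5, the export receptor of microRNA precursors, fell in DMSO 48 h against DMSO 16 h, with a log2 fold change of -0.19 (limma, adjusted p = 0.0255). That call was lost without any 1 of the DMSO 48 h libraries and without DMSO 16 h replicate 1 or 2 (adjusted p up to 0.0932). The other 11 were not called, beside 32.7% of all genes called in either direction. None of the 12 was called in erinacine S against DMSO at 48 h or 16 h, beside 0.134% and 0% of all genes.

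**Figure D3:**
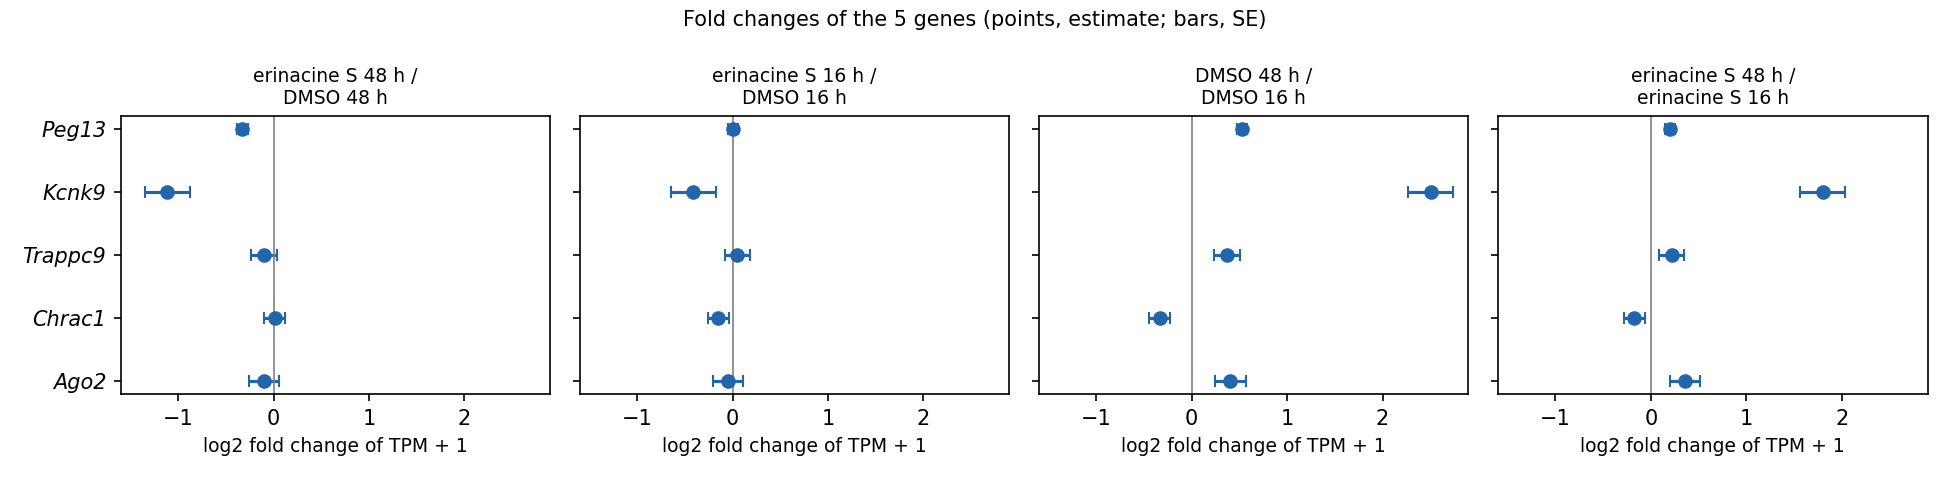
Log2 fold changes of TPM + 1 for the 5 genes (rows) in 4 comparisons (panels, from left: erinacine S 48 h against DMSO 48 h, erinacine S 16 h against DMSO 16 h, DMSO 48 h against DMSO 16 h, erinacine S 48 h against erinacine S 16 h). Points are estimates and bars are SE. Kcnk9 stands farthest from 0 in each panel, at -1.11, -0.41, 2.51 and 1.80.

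Across the cluster, DMSO 48 h against DMSO 16 h called 2 of the 4 genes tested, Kcnk9 higher and Chrac1 lower, beside 32.7% of all genes. Libraries did not overlap for 4 of the 5, beside 50.5% of all genes, with 3 higher (24.1% of all genes) and 1 lower (26.4%). Over so few genes, these counts are not read as particular to the cluster. In erinacine S 16 h against DMSO 16 h, 0 of the 5 were called, beside 0% of all genes (0 of 15623 by limma, 201 at an unadjusted p under 0.05, 6 with no filter on low values). Those 201 are a smaller share than the 0.05 that would fall there with no difference in any gene. The 16 h test thus looks conservative, for a cause that was not tested. The lack of calls at 16 h does not show that erinacine S had no effect. In erinacine S 48 h against DMSO 48 h the libraries did not overlap for 2 of the 5, Peg13 and Kcnk9, both lower. Of all genes tested, 19.3% did not overlap in that contrast, 8.74% as lower, and limma called 0.134% (21 genes). Since the list was chosen on that contrast, nothing is read from the count. In erinacine S 48 h against erinacine S 16 h, Peg13 and Kcnk9 again did not overlap, both higher, beside 44.9% of all genes (21.2% higher).

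Since TPM are per length, the levels of the 5 genes can be ordered. Peg13 held 69.8% to 74.7% of their summed TPM in every library, and Trappc9 came next, at 38.6 TPM over the 12 libraries. Ago2 (21.4 TPM) and Chrac1 (17.7 TPM) followed. At 48 h every Ago2 value was above every Chrac1 value of its group, and at 16 h their ranges overlapped. Kcnk9 averaged 9.06 TPM. It was below the other 4 genes in all 16 h and erinacine S 48 h libraries, but in DMSO 48 h its values of 16.9 to 24.3 TPM overlapped with those of Ago2 and Chrac1. Its share of the summed TPM was 1.84% to 4.39% with erinacine S and 4.35% to 6.07% with DMSO at 48 h, and 0.560% to 0.928% with erinacine S and 0.972% to 1.14% with DMSO at 16 h.

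Around the cluster, 45 genes of the table start within 2 Mb of Peg13, and 40 of them are not among the 5. Of those 40, 14 were tested and 26 were below the level filter. In DMSO 48 h against DMSO 16 h 5 of the 14 rose and none fell, beside 16.1% and 16.6% of all genes. Over so few genes, these counts are not read as particular to the region. The 4 with the smallest p were Them6 (log2 fold change 0.76, limma adjusted p = 0.00145), Lynx1, a modulator of nicotinic acetylcholine receptors (1.18, adjusted p = 0.00282), Adgrb1, an adhesion receptor found at synapses (0.26, adjusted p = 0.0267), and the solute carrier Slc45a4 (0.37, adjusted p = 0.0303). The call of Adgrb1 was lost without DMSO 48 h replicate 1 or 3 or DMSO 16 h replicate 1 or 3 (adjusted p up to 0.1001), and that of Slc45a4 without any 1 of the DMSO 48 h libraries or DMSO 16 h replicate 2 or 3 (up to 0.102). With no filter on low values both calls were lost (adjusted p = 0.0953 for Adgrb1 and 0.108 for Slc45a4).

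In erinacine S 48 h against DMSO 48 h, 1 of these 14 neighbours was called, beside 0.134% of all genes. Libraries did not overlap for 4 of the 14, all lower, beside 8.74% of all genes as lower. The window was set around Peg13, which was chosen on this contrast, so these counts are not read as an effect on the region. Arc, an activity-induced gene of synapses, lies 1863 kb from Peg13 and fell, at 1.33 ± 0.278 TPM in erinacine S 48 h and 4.21 ± 0.604 TPM in DMSO 48 h (SD, n = 3 each). Its log2 fold change was -1.16 ± 0.14 (SE; limma, adjusted p = 0.00405), and the call held in all 19 alternatives. Ptk2, which encodes focal adhesion kinase and is the nearest protein-coding neighbour tested outside the 5, lies 400 kb away and had a log2 fold change of -0.01. Between Peg13 and Chrac1 lies the pseudogene Gm3150, with -0.56 ± 0.20 (adjusted p = 0.439). Them6 had -0.42 ± 0.13 (limma, adjusted p = 0.353) and Lynx1 -0.52 ± 0.23 (adjusted p = 0.548). Arc, Gm3150, Them6 and Lynx1 were the neighbours without overlap. The median of the 14 was 0.00, against 0.01 over all genes, and at 16 h none of the 14 was called, beside 0% of all genes.

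**Figure D4:**
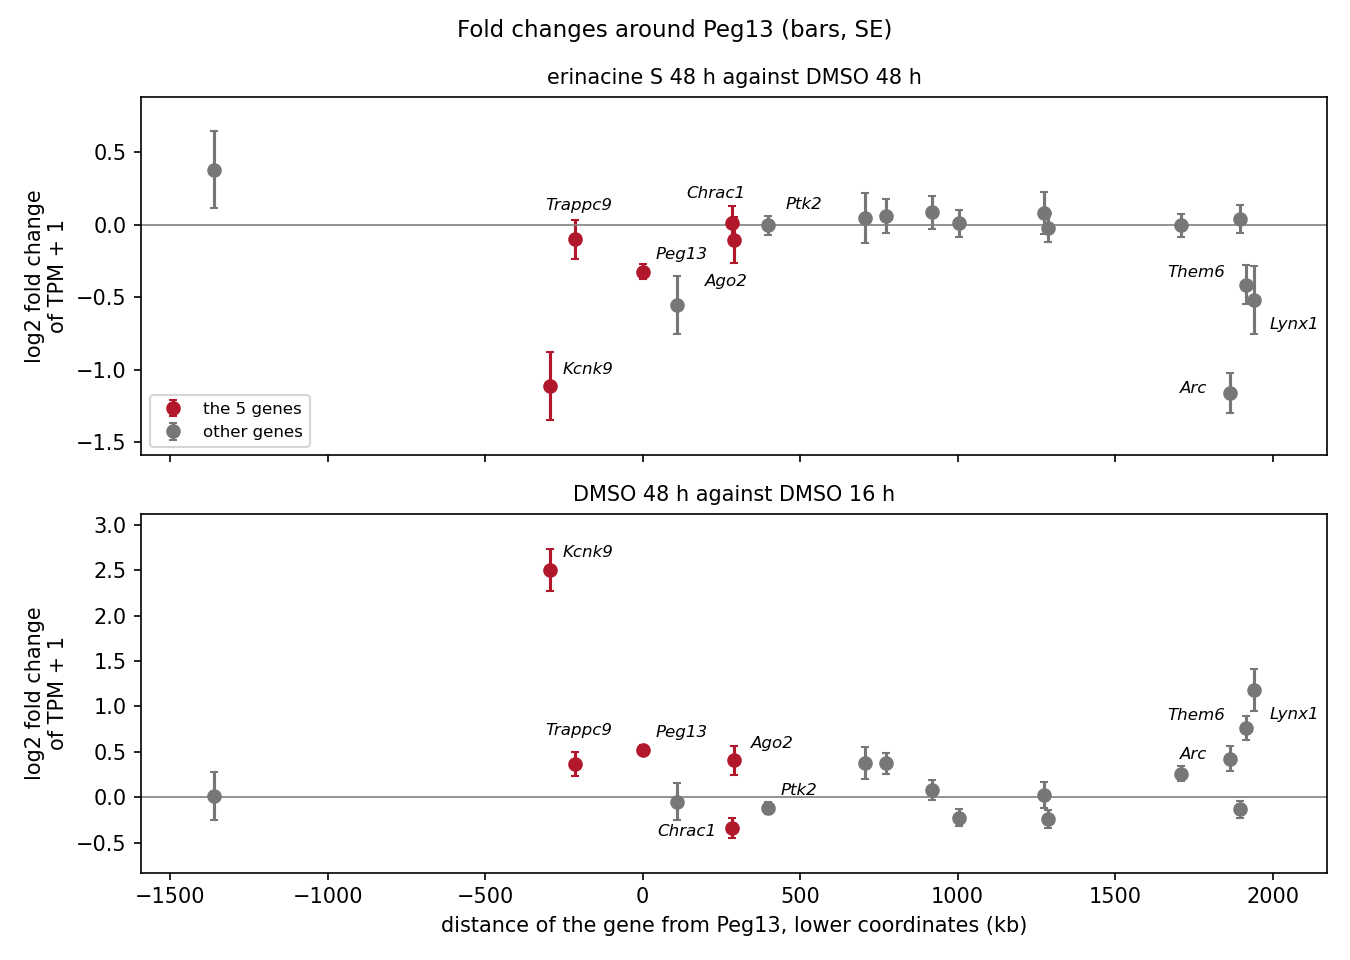
Log2 fold change of TPM + 1 of the 19 tested genes within 2 Mb of Peg13 against distance from Peg13 in kb (lower coordinates), for erinacine S 48 h against DMSO 48 h (top) and DMSO 48 h against DMSO 16 h (bottom). Red points are the 5 genes, grey points the 14 others, and bars are SE. In the top panel Kcnk9 at -1.11 and Arc at -1.16, at opposite sides of Peg13, are the lowest points, with most genes between them near 0.

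The genes whose log2 values were most like those of Peg13 over the 12 libraries were found by Pearson's r among all 15623 genes, as a description. They were Sorcs2 (0.971), Grwd1 (0.969), Ugt8a (0.967), Brinp1 (0.966) and Arntl (0.965), with Spearman's rho of 0.916, 0.895, 0.944, 0.937 and 0.916. The 12 points share 4 groups and a common scale. Brinp1, for instance, averaged 32.5 TPM in erinacine S 48 h, 48.0 in DMSO 48 h, 20.4 in erinacine S 16 h and 21.5 in DMSO 16 h. Within the cluster the r with Peg13 was 0.940 for Kcnk9, which ranked 37th of all genes, 0.709 for Ago2, 0.654 for Trappc9 and -0.686 for Chrac1. For Kcnk9 the most similar genes were Arntl (0.985), Epb41l2 (0.979), Hey1 (0.977), Rgs7 (0.973) and Klf9 (0.970). Arntl, which encodes the clock transcription factor BMAL1, is in both lists and averaged 21.5 ± 2.46 TPM in erinacine S 48 h, 29.8 ± 0.236 in DMSO 48 h, 15.3 ± 0.484 in erinacine S 16 h and 15.9 ± 0.189 in DMSO 16 h (SD, n = 3 each).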

How the data were processed

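RNA of 12 libraries was measured by strand-specific RNA sequencing. Expression was deposited by the authors as TPM in 1 table, which holds a small constant in place of 0, read as 0. The submitters' processing notes name bcl2fastq 2.20, Trimmomatic 0.36, FastQC, HISAT2, SAMtools, StringTie 2.1.3 and the build GRCm38.p5, with no settings. TPM keep no read depth, so precision is given as the spread between libraries.

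Groups and replicate numbers came from the sample titles. Tests ran on log2(TPM + 1) in limma 3.58.1 (R 4.3.3), over the 15623 genes whose mean TPM reached 1. A single fit had 1 mean per group of 3, with a trend in eBayes, two-sided tests and Benjamini-Hochberg adjustment over all genes tested (threshold 0.05). A fold change on this scale understates the change of low genes. The script was tested on simulated data. The genes and lists were chosen with earlier results of these data known. Named genes were the 5 genes and, of each list and of the neighbours within 2 Mb, up to 4 called genes with the smallest p, or the 2 smallest where none was called, of which the text gives part, and the 5 most similar genes by r. Gm3150, Ptk2, Ago1 and Kcnk2 were named after their values were seen, and so were Them6 and Lynx1 in erinacine S 48 h against DMSO 48 h.

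Replicates correlated at 0.980 to 0.995 across genes. After subtracting group means, erinacine S and DMSO libraries with equal numbers correlated at 0.480, 0.185 and 0.510 at 16 h. Those with unequal numbers correlated at -0.448 to 0.109 there. The numbers may therefore pair those groups, from the data and not from a stated design. At 48 h a pair with unequal numbers reached 0.201, so the 0.185 alone does not show pairing. The 16 h tests did not use the numbers, and the replicate block within each time changed no call of the 5 genes there. Alternatives were a pseudocount of 0.1 or 5, other level filters, median-ratio scaling, the replicate block and leaving out each library. TPM without mitochondrially encoded genes were a further one, not used for the counts of genes called. A replicate block within each time was run only where erinacine S was set against DMSO. No promoter of the 5 genes matched the RefSeq promoter table, and no sequence was analysed here.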

Additional observations from a re-analysis of the deposited data

How the results depend on the processing

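Kcnk9 in DMSO 48 h against DMSO 16 h kept its direction and its call in all 19 alternatives (adjusted p 4.87e-06 to 0.00121). Median-ratio scaling moved the log2 fold change of Trappc9 in that comparison to 0.39 (adjusted p = 0.0373) and of Ago2 to 0.42 (adjusted p = 0.0465), both now past the threshold, and the replicate block gave 0.37 for Trappc9 (adjusted p = 0.0428) and -0.34 for Chrac1, no longer past it (adjusted p = 0.0529). With no filter on low values Chrac1 had -0.34 (adjusted p = 0.118). With each library left out in turn, Trappc9 lay between 0.22 and 0.48, Chrac1 between -0.41 and -0.28 and Ago2 between 0.32 and 0.47. At 16 h, leaving out libraries moved the sign for Peg13 (-0.029 to 0.037) and for Trappc9 (-0.093 to 0.16), and no filter on low values gave 6 called genes in place of 0. In erinacine S 48 h against DMSO 48 h, the 21 genes called became 13 with the replicate block and 9 to 114 with a library left out, 114 without erinacine S 48 h replicate 1. Kcnk9 in erinacine S 48 h against erinacine S 16 h was 1.05 with a pseudocount of 5, since a larger pseudocount shrinks low genes. For the other changes the cause was not tested. Same-numbered libraries did not pair at 48 h, where their deviations correlated at -0.022, 0.107 and -0.192, and the replicate block changed no other call of the 5 genes. Median-ratio scaling shifted the median of all genes by at most 0.02 on the log2 scale. Of 22 named calls outside the 5 genes, 12 held in every alternative run and 10 were lost in at least 1, with the same sign throughout. With 3 libraries a group and unknown depth, counting error at the low TPM of Kcnk9 at 16 h cannot be separated from other spread.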

Other observations

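Imprinted genes elsewhere in the genome were set beside the cluster. Of 43 listed genes 38 were tested. In erinacine S 48 h against DMSO 48 h 0 were called (limma), beside 0.134% of all genes. In erinacine S 16 h against DMSO 16 h 0 were called, beside 0% of all genes. With so few calls among all genes, these counts do not show that imprinted genes elsewhere were unaffected. Their median log2 fold change in erinacine S 48 h against DMSO 48 h was -0.04, against 0.01 over all genes. The smallest p belonged to Plagl1, a zinc finger transcription factor, with -0.37 ± 0.12 (SE; adjusted p = 0.359), and Peg10, a retrotransposon-derived gene, with -0.73 ± 0.24 (adjusted p = 0.374). In DMSO 48 h against DMSO 16 h 6 of the 38 rose and 6 fell, beside 16.1% and 16.6% of all genes. These counts are not read as particular to imprinted genes. Among those that rose were Igf2r, the receptor that clears IGF2 (0.45), and Gnas, the stimulatory G protein subunit (0.41). Among those that fell were Plagl1 (-0.78) and Dio3, the thyroid hormone-inactivating deiodinase (-0.99).

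Of 12 genes for imprint maintenance and insulation 11 were tested, and none was called in either erinacine S comparison. Of all genes, 0.134% were called at 48 h and 0% at 16 h. In DMSO 48 h against DMSO 16 h 3 of the 11 fell and none rose (limma), beside 16.6% and 16.1% of all genes. Zfp57, the zinc finger protein that protects methylated imprinting control regions, had a log2 fold change of -0.61 (adjusted p = 0.000136). Ctcf, the insulator protein, had -0.26 (adjusted p = 0.0315) and Smc3, a cohesin subunit, -0.25 (adjusted p = 0.0408). The calls of Ctcf and Smc3 were lost under median-ratio scaling, without any 1 of the DMSO 48 h libraries and without DMSO 16 h replicate 2 or 3, and that of Smc3 also without DMSO 16 h replicate 1 or erinacine S 48 h replicate 2 or 3 (adjusted p up to 0.0938 for Ctcf and 0.118 for Smc3). With no filter on low values both calls were lost (adjusted p = 0.113 for Ctcf and 0.138 for Smc3). In erinacine S 48 h against DMSO 48 h Zfp57 had 0.15 ± 0.07 (SE; adjusted p = 0.571).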
